A study of Rattus norvegicus with 3 samples.

Results

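Transcript signals in the kidney of 1 male rat at day 5 of ethylene glycol were set against those of 1 control male rat, gene by gene. Ethylene glycol (EG) is the sweet solvent of antifreeze, and it was given by mouth at 8 g/kg. The EG day 5 array and the control array each come from whole kidney of 1 animal, and 1 more array, from a rat at EG day 2, is used here only to give values beside them. Whether EG was dosed throughout the 2 or 5 days or only before them cannot be told apart from the labels. The sources used here give no strain, no age and no account of how the control rat was handled. All 20667 genes that had a transcript cluster of their own on the array (the probes assigned to 1 transcribed locus) were taken, the same number as in the whole series. Of these, 13328 genes (64.5%) reached a background level of 5.34 log2 on at least 1 of the 2 arrays and are called measured. That level is the 95th percentile of 1058 olfactory receptor genes, which were taken to be silent in kidney.

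EG is oxidised by alcohol and aldehyde dehydrogenases to glycolate, glyoxylate and oxalate, whose calcium salt crystallises in the lumen of kidney tubules. The proximal tubule reclaims most filtered solutes through apical carriers and takes up filtered protein through megalin and cubilin. Injured tubule cells are known to switch on secreted and surface proteins such as KIM-1 and clusterin, while fibroblasts and macrophages gather between the tubules. The labelled tissue was checked against its defining markers at EG day 5 and in the control. Umod (uromodulin, thick ascending limb) was at 18.67 and 18.79 log2, Lrp2 (megalin, proximal tubule) at 18.57 and 19.19, and Aqp2 (the water channel of the collecting duct) at 12.95 and 12.61. All 3 stood far above the background level on both arrays. Adrenal cortex had 0 of 6 and urothelium 0 of 9 matched markers above the level.

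With 1 array a side there is no spread between animals, so every difference below describes these 2 rats and has no test behind it. Differences are EG day 5 minus control on the deposited log2 scale. Its values reach 19.93, and 232 clusters exceed the 16 log2 units of a 16-bit scanner, so the scale may stretch or compress a difference in RNA, most of all in bright genes. In whole tissue, fewer cells of a type and less RNA per cell cannot be told apart. The median difference over measured genes was 0.02, with quartiles of -0.31 and 0.37. Higher by 2-fold or more at EG day 5 were 643 genes, 4.82% of those measured, and lower by 2-fold or more were 491, or 3.68%. At least 4-fold higher were 44 genes (0.330%) and at least 4-fold lower 46 (0.345%). Higher genes made up 56.7% of those at least 2-fold apart, and 43.2% when each array was first centred on its median. Among 5 equal bins of mean signal, the brightest had 121 higher and 213 lower genes and a median of -0.12, whereas the other 4 bins of signal had medians of 0.01 to 0.11. Beside these shares, 2.55% of the olfactory receptor genes were 2-fold or more higher and 2.74% lower when no background level was set.

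**Figure D1:**
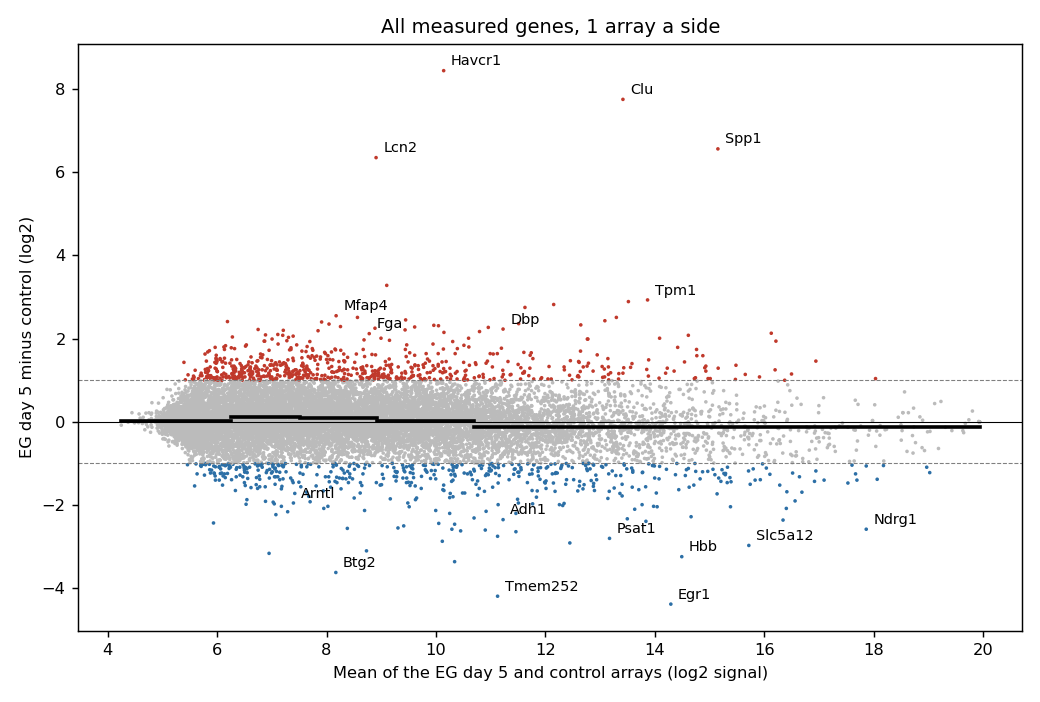
Difference between EG day 5 and control (log2, vertical axis) against the mean log2 signal of both arrays (horizontal axis) for the 13328 measured genes, 1 point a gene. Red points are higher by 2-fold or more (643) and blue points lower by 2-fold or more (491), dashed lines mark 2-fold, and black steps are the medians of 5 signal bins. Havcr1, Clu, Spp1 and Lcn2 stand above all other genes, and Egr1 and Tmem252 lie lowest.

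The 4 largest differences at EG day 5 belonged to injury genes, at 81.6-fold or more. Havcr1, which encodes the phagocytic receptor KIM-1 of injured proximal tubule, was at 14.36 log2 at EG day 5, against 5.92 in the control, a 347-fold difference on the deposited scale. Clu (clusterin, a secreted chaperone) was at 17.29 and 9.54, Spp1 (osteopontin, which coats calcium crystals) at 18.43 and 11.87, and Lcn2 (NGAL, an iron carrier of injured tubule) at 12.08 and 5.73 log2. None of the other measured genes passed 10-fold higher. Cytoskeletal genes were among the next largest: Tpm1 (tropomyosin) was higher by 2.93 log2, Vim (vimentin, an intermediate filament of mesenchyme and of dedifferentiated tubule) by 2.82, and Tmsb10 (an actin-binding thymosin) by 2.75. S100a11, a calcium-binding protein, was higher by 2.89. At EG day 2 the difference from the same control array was 12.47 for Havcr1, 7.66 for Clu and 2.42 for Tpm1.

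Immediate early genes, whose products are made within minutes of a stimulus and decay as quickly, had the largest share of lower genes among the 60 lists with at least 5 measured members. Of 22 measured members of the list, 12 were lower by 2-fold or more and 0 higher, beside the 3.68% and 4.82% of all measured genes, and the list median was -1.26. Over the alternative settings tried, that median ran from -1.395 to -0.64. Egr1, a zinc finger factor, was at 12.10 log2 at EG day 5, against 16.48 in the control, the largest lower value among all genes present on both arrays (20.8-fold). Btg2, an antiproliferative factor also induced by p53, was at 6.36 against 9.98, and the orphan nuclear receptor Nr4a1 at 7.18 against 10.28. Zfp36, which speeds the decay of cytokine mRNAs, was at 9.75 against 12.50. Nr4a3, an orphan receptor like Nr4a1, lay under the background level at EG day 5 and at 7.77 in the control, at least 5.39-fold lower. Lower members outside the rule for named genes, chosen after their values were seen, include Dusp1 (a MAP kinase phosphatase, by 2.01), Nr4a2 (by 1.97), Jun (by 1.60), Atf3 (by 1.46) and Junb (by 1.27). Fos was lower by 1.24. Not all members were lower: Myc differed by 0.22, Ier3 by 0.30 and Klf6 by 0.73. At EG day 2 the median of the same members was -0.585, with Egr1 at -3.00 and Btg2 at -0.43.

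Many of these genes are known to be switched on through 2 promoter elements, the CArG box bound by serum response factor and the cAMP element TGACGTCA bound by CREB, so the promoters of 4 lower genes are shown. They are RefSeq sequences of assembly GRCr8, not the build of the files, running from 250 bases before to 50 after the gene start, written 5′ to 3′ on the gene's own strand. Capitals mark these elements only.
Egr1, chr18:26736828-26737127, plus strand: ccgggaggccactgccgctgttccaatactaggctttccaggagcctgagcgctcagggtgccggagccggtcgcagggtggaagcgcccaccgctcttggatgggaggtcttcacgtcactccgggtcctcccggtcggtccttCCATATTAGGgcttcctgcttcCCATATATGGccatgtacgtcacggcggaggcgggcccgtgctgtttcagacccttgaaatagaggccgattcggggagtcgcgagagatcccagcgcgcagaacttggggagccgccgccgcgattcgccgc
Zfp36, chr1:92799059-92799358, minus strand: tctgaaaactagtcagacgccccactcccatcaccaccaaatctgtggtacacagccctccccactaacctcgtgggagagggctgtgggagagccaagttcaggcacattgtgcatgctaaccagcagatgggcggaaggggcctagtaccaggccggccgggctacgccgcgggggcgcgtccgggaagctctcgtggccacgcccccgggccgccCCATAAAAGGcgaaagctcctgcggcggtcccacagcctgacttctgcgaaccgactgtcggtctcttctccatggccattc
Btg2, chr13:48087641-48087940, minus strand: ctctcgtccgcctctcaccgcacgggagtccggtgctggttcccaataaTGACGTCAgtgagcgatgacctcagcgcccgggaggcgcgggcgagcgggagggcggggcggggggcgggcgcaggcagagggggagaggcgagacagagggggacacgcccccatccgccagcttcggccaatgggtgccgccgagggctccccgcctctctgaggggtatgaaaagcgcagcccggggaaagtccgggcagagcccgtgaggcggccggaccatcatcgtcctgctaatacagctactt
Dusp1, chr10:17184603-17184902, plus strand: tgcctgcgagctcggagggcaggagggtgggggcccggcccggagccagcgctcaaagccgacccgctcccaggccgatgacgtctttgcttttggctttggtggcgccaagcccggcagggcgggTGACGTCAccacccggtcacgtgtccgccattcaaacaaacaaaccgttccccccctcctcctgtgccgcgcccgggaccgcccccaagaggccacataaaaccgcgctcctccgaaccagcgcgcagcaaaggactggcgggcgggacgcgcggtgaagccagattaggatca

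Egr1 carries 2 CArG boxes in this window and Zfp36 carries 1. Of 16 measured immediate early genes with a promoter in the table, 4 held a CArG box (Egr1, Egr2, Zfp36 and Klf6) and 5 held TGACGTCA (Jund, Ier2, Btg2, Dusp1 and Maff), searched on both strands. Over all 33469 promoters of the same length the shares were 1.64% and 1.83%. Both motifs occurred in lower members and in members that were not lower, since Egr2 differed by 0.32, Klf6 by 0.73 and Jund by 0.01. Of the 12 members lower by 2-fold or more, 8 had a promoter to search, and of these 2 held the CArG box and 3 TGACGTCA. A match is a description of letters, and no binding was measured.

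Clock genes differed in opposite directions at EG day 5. The circadian clock is a loop in which Arntl (BMAL1), with Clock or Npas2, drives Per and Cry repressors and the output factors Dbp, Hlf and Tef, while Nr1d1 and Rora act on the Arntl promoter. Arntl was at 6.42 log2 at EG day 5, against 8.37 in the control, and Npas2 at 6.06 against 7.99. Nfil3, the repressor that competes with Dbp, was at 5.93 against 7.84, and Clock at 11.59 against 12.61. Dbp was at 12.34 against 10.11 and Hlf at 10.71 against 9.53. So the 3 activators and Nfil3 were lower, while both output factors were higher. The repressor Per2, drawn in the plot of clock genes, was at 9.72 and 8.78. Other repressors did not all follow it: Per1 was lower by 0.73, while Per3 and Cry2 differed by 0.13 and 0.40. Of the 10 measured output genes, 5 lay above 0 and 5 below it. Of 23 measured members, 2 were higher by 2-fold or more and 4 lower, beside 4.82% and 3.68% of all measured genes. The list median was 0.13. At EG day 2 the difference from the same control was 0.81 for Arntl, -1.61 for Dbp and 0.46 for Npas2. The sources used here do not give the hour at which each animal was killed, so hour and treatment cannot be told apart.

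The promoter of Arntl, named Bmal1 in RefSeq, is shown with its ROR element TAGGTCA in capitals. That motif was found in 2.63% of all promoters and in 1 of the 18 measured clock genes that had a promoter to search.
Arntl, chr1:176766078-176766377, plus strand, GRCr8: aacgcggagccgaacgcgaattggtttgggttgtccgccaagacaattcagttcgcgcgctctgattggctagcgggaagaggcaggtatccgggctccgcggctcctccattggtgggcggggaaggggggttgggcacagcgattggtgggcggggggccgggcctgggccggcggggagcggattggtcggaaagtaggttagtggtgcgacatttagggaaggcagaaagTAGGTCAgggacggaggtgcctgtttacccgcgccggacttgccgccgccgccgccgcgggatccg
The E-box CACGTG, to which BMAL1 and CLOCK are known to bind, lay in 4 of the 18 (Nr1d1, Bhlhe40, Bhlhe41 and Lonrf3) and in 6.42% of all promoters. The D-box TTATGTAA, bound by DBP and NFIL3, lay in 1 of the 18 (Per2) and in 0.893% of all promoters. Nr1d1 was at 11.42 log2 at EG day 5 and 11.29 in the control, and Rora at 10.07 and 11.04. These promoter matches fell on members with differences between -1.95 and 0.94. None of the motifs in capitals overlaps another.

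**Figure D2:**
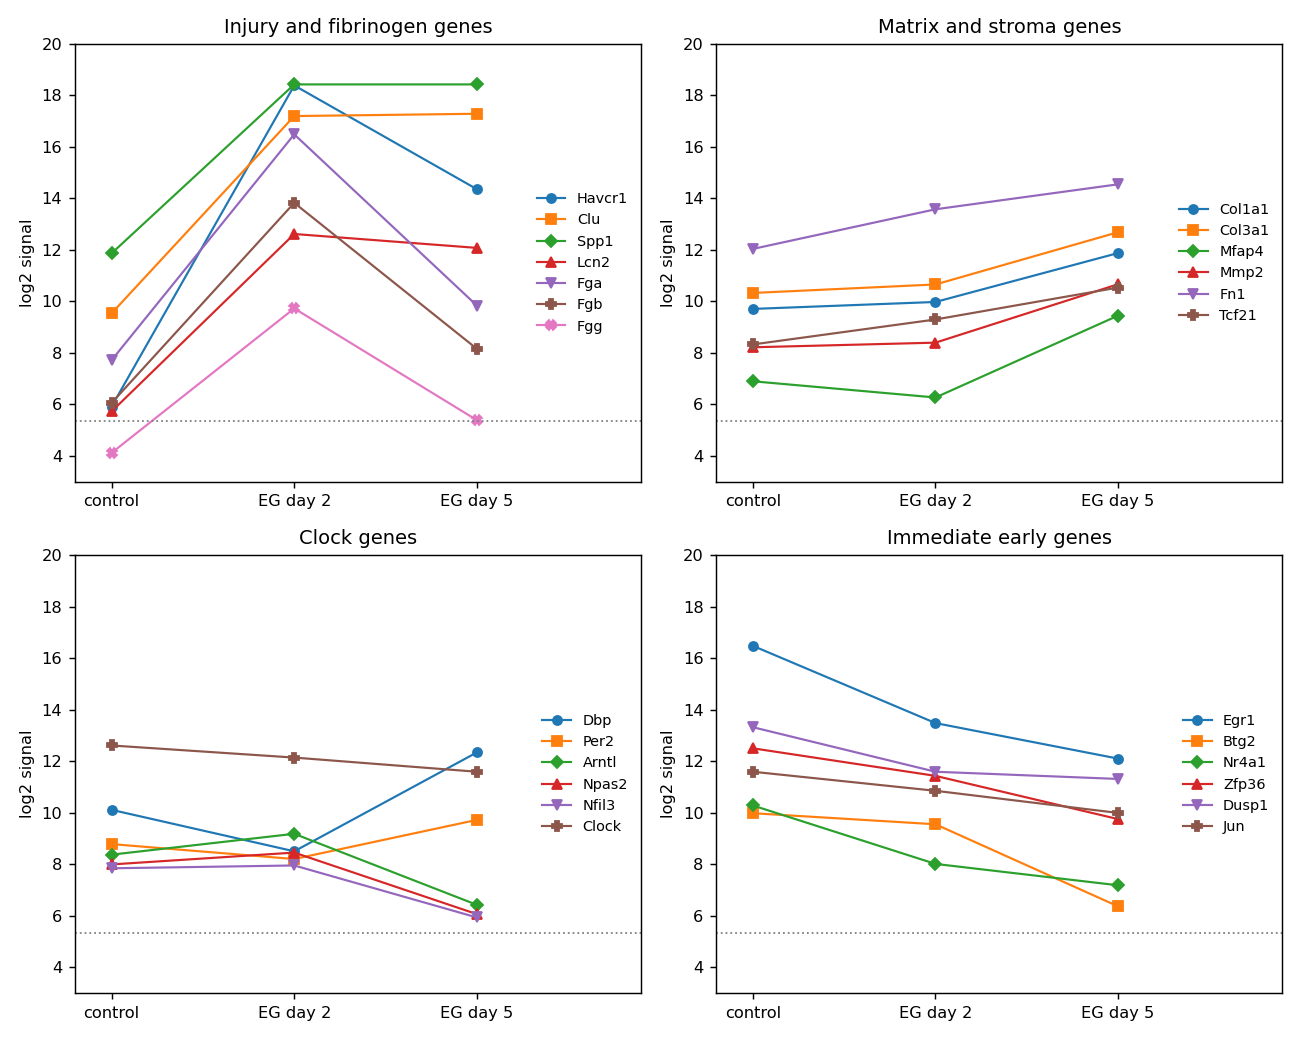
Log2 signal (vertical axis) of selected genes for control, EG day 2 and EG day 5 kidney, 1 array each, in 4 panels, with the background level of 5.34 as a dotted line. Fga and Fgb peak on the day 2 array, Col1a1, Col3a1, Mfap4 and Mmp2 are highest at day 5, Dbp and Arntl differ from control in opposite directions, and the 6 immediate early genes are lowest at day 5.

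Carriers of the proximal tubule were lower as a group. Of 46 measured members of the proximal tubule transport list, 18 were lower by 2-fold or more and 2 higher, 39 lay below 0, and the median was -0.64. These counts, and those of every list that follows, stand beside the 3.68% of all measured genes that were lower and the 4.82% that were higher. In the brightest of the 5 signal bins, from a mean of 10.685 log2, 213 of 2666 genes were lower and 121 higher. For lists of bright genes, 3.68% is therefore a low figure to set a lower count against. The summed level of the 47 matched genes was 20.74 log2 at EG day 5, against 21.47 in the control. Among carriers of sugar and lactate, Slc5a12, the lactate carrier, was at 14.23 against 17.20, a 7.84-fold difference. Slc23a1 (vitamin C) was at 13.02 against 15.06 and Slc5a2 (SGLT2, the main glucose carrier) at 12.22 against 14.06. This role had 5 of 9 members lower by 2-fold or more. The 14 amino acid and peptide carriers had 7 lower and a median of -0.995. In that role Slc6a19 (neutral amino acids) was at 10.14 against 12.13, and Slc7a9, which pairs with Slc3a1 to reclaim cystine, at 9.67 against 11.38. Slc3a1 itself was at 18.51 and 19.01, close to the top of the scale, where differences may be compressed. The counts of this role also take in Clcn5, the endosomal chloride exchanger, which carries no amino acid and was lower by 1.86; it stands outside the rule for named genes and was chosen after its value was seen.

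Sodium, phosphate and water genes of the same segment varied. Slc4a4, the basolateral bicarbonate exit, was at 15.36 log2 at EG day 5, against 17.44 in the control, whereas Slc9a3, the apical sodium-proton exchanger, was at 12.07 and 12.16. The water channel Aqp1 was at 17.54 and 17.73, while Cldn2, the leaky claudin that lets sodium and water pass between the cells, was at 6.74 and 8.66. The phosphate carriers Slc34a3 (NaPi-IIc) and Slc34a1 (NaPi-IIa) were lower by 1.81 and 1.05. Protein uptake genes had Cubn (cubilin) lower by 1.15 and Lrp2 by 0.62. The 2 higher members were Amn (amnionless, the partner of cubilin), by 1.06, and Car4, a surface carbonic anhydrase, by 1.14. Slc13a1, the sulphate carrier, was lower by 0.45 at EG day 5 and higher by 1.75 at EG day 2. Beside these values, Hnf4a, a transcription factor of the tubule epithelium, differed by -0.30.

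**Figure D3:**
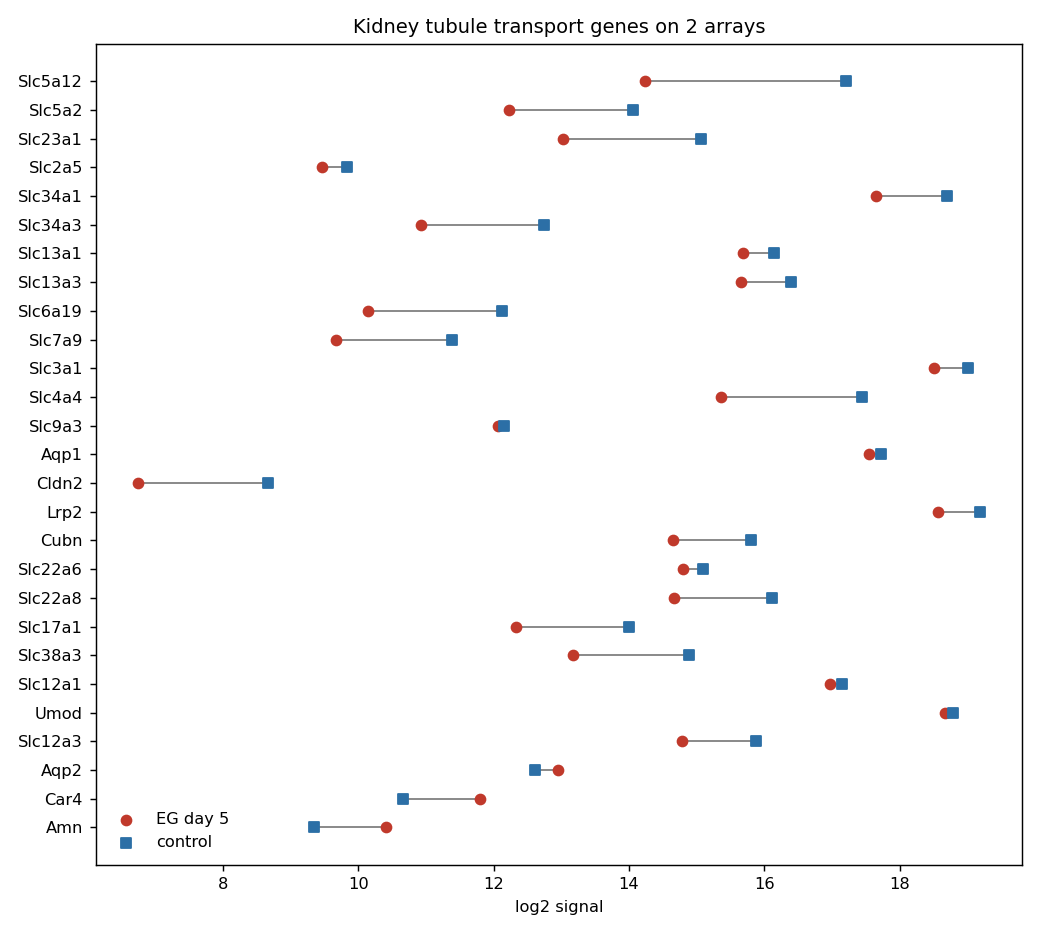
Log2 signal (horizontal axis) of 27 tubule transport genes at EG day 5 (red circles) and in the control (blue squares), 1 array each, joined by a line per gene. The longest lines belong to Slc5a12, Slc4a4, Slc23a1, Slc6a19 and Cldn2, all lower at EG day 5, whereas Slc9a3, Umod, Aqp1 and Slc12a1 lie almost on top of their control values.

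Organic ion carriers, which secrete drugs and uremic solutes, lay on the same side. Of 24 measured, 5 were lower by 2-fold or more and 1 higher, with a median of -0.63. Slc17a1 and Slc17a3, apical urate carriers, were lower by 1.67 and 1.5 log2. The basolateral anion carrier Slc22a8 (OAT3) was lower by 1.44, while Slc22a6 (OAT1) was lower by only 0.29 and the cation carrier Slc22a2 (OCT2) by 0.28. Abcb1b, a P-glycoprotein efflux pump, was the 1 higher member, at 8.93 against 7.25, and was higher by 3.20 at EG day 2. Relatives of the Slc22 family can share probe signal.

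Of 25 measured enzymes that make and remove oxalate, 0 were higher by 2-fold or more and 2 lower, beside 4.82% and 3.68% of all measured genes, with a median of -0.24. The lower count is near the share in the brightest signal bin, 213 of 2666 genes. Adh1, which starts EG oxidation, was at 10.05 log2 at EG day 5, against 12.40 in the control, and Gldc, the glycine cleavage enzyme, was lower by 1.27. Hoga1 and Grhpr, which handle hydroxyoxoglutarate and glyoxylate in mitochondria and cytosol, were lower by 0.90 and 0.31. Agxt, the peroxisomal glyoxylate transaminase known from liver, lay under the background level on both arrays. In gluconeogenesis and fructose use, 3 of 18 measured genes were lower by 2-fold or more and 1 higher. Fbp1 and G6pc, late steps of glucose output, were lower by 0.95 and 0.93, Pck1 differed by -0.27, and the mitochondrial form Pck2 was higher by 1.17. Sord, the sorbitol dehydrogenase, was lower by 1.37 while Akr1b1, the aldose reductase that makes sorbitol, was at 11.81 against 10.17.

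Acid and ammonia genes had 2 of 22 measured members lower by 2-fold or more and 0 higher, beside 3.68% and 4.82% of all measured genes, and a median of -0.10. This lower count, too, is near the 213 of 2666 genes of the brightest signal bin. Slc38a3, the glutamine carrier that feeds ammonia formation in the proximal tubule, was at 13.17 log2 at EG day 5, against 14.88 in the control, and Slc4a9, a bicarbonate carrier of intercalated cells, at 10.12 against 11.26. Glud1, which releases ammonia from glutamate, differed by -0.15. The proton pump subunits Atp6v0a4 and Atp6v1b1 were lower by 0.93 and 0.55. Atp6v1g3, a further subunit, was higher by 0.33.

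The thick ascending limb list had 1 of 24 measured genes lower by 2-fold or more and 0 higher, with a median of -0.24. Slc12a1, the salt carrier NKCC2, was at 16.97 log2 at EG day 5 and 17.15 in the control, and Egf at 17.34 and 18.02. The 3 measured clusters of Egf differed by -1.29 to -0.68, and the one used here is the least lower. Kcnj10, the basolateral potassium channel, was the 1 lower gene, at 6.69 against 7.74. In the distal tubule list 4 of 21 were lower by 2-fold or more and 0 higher, beside 3.68% and 4.82% of all measured genes: Slc12a3 (the thiazide-sensitive carrier NCC) by 1.09, Kl (klotho, the FGF23 coreceptor) by 1.14, Vdr (the vitamin D receptor) by 1.16 and Slc16a7 (a monocarboxylate carrier) by 1.27. Trpv5, the calcium channel, was higher by 0.77. Of 14 measured potassium channels, 3 were lower, Kcnj15 most (12.77 against 14.76), and Kcnk1 was higher by 1.03.

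The collecting duct list had 2 of 28 measured genes higher by 2-fold or more and 3 lower, with a median of -0.14. Among water channels Aqp3 and Aqp2 differed by 0.21 and 0.34, while Aqp11, an intracellular water channel, was at 7.72 log2 at EG day 5, against 8.88 in the control. Avpr2 (the vasopressin receptor) was at 7.50 against 6.27, and Gata3 (a transcription factor of the duct) at 11.01 against 9.26. The 19 sodium channel and corticosteroid genes had 1 higher, 2 lower and a median of -0.22. The 2 lower ones were Sgk1, the kinase that aldosterone and cortisol induce, at 12.89 against 14.52, and Fkbp5, a glucocorticoid target, at 8.92 against 10.26. Both were higher at EG day 2, by 1.34 and 0.42. The sodium channel subunits Scnn1a, Scnn1b and Scnn1g differed by -0.25, -0.06 and 0.23. Slc6a6, a taurine carrier used as osmolyte pump, was higher by 1.08 and Slc14a1, a urea channel, by 1.22.

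Glomerular and vessel genes held a few lower and higher members. Col4a3 and Col4a4, the collagen IV chains of the mature glomerular basement membrane, were at 11.02 and 11.27 log2 at EG day 5, against 12.68 and 12.46 in the control. Podxl (podocalyxin, of the podocyte surface) was at 14.15 and 14.14, and Vegfa, the podocyte and tubule growth factor of endothelium, at 14.46 against 15.73. Tcf21, made by podocytes and by interstitial fibroblasts, was the 1 higher podocyte list member, at 10.54 against 8.33. The endothelial list had a median of 0.12, with Eng (endoglin) higher by 1.11 and Pecam1 lower by 0.54. Ptgs2 (cyclooxygenase 2) was at 8.25 against 9.76.

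Injury genes beyond the 4 largest were more modest. Of 28 measured tubular injury genes 13 were higher by 2-fold or more and 2 lower, with a median of 0.69. Cd44, the hyaluronan receptor, was at 8.42 log2 at EG day 5, against 6.36 in the control, and Timp1, a metalloproteinase inhibitor, at 6.98 against 5.67. Of 5 measured keratins of simple epithelium 4 were higher by 2-fold or more: Krt8 was higher by 1.34, Krt19 by 1.38, Krt7 by 1.33, and Krt18 by at least 2.75-fold. When a gene's clusters were averaged, Krt18 differed by 0.062 and Krt7 by 0.485, so that of the 4 Krt8 and Krt19 stayed past 2-fold. Cdh1 (E-cadherin) and Cdh2 (N-cadherin) were lower by 0.28 and 0.58. Among claudins, Cldn4 was at 8.31 against 6.11 and Cldn2, named above, was the 1 lower by 2-fold or more. Cldn10 and Cldn16, which form the cation pores of the thick ascending limb, were lower by 0.80 and 0.71.

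Genes of stone matrix and crystal binding had 11 of 20 measured members higher by 2-fold or more and 1 lower, with a median of 1.40. That median rests on the background level: it was 0.31 with no level, when members dim on both arrays count too, and 0.37 with the level at the median of olfactory receptor genes. Mgp (matrix Gla protein, an inhibitor of calcification) was at 15.65 log2 at EG day 5, against 13.57 in the control. Fn1 (fibronectin) was at 14.55 against 12.04, and Gpnmb (a lysosomal and surface glycoprotein of macrophages) was at least 3.46-fold higher. The hyaluronan synthase Has2 was under the level in the control and at 5.79, and F2 (prothrombin) was lower by 0.26. Several members also stand on the injury, matrix or macrophage lists.

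Matrix genes were higher at EG day 5 in many members. Of 23 measured collagens 9 were higher by 2-fold or more and 2 lower, with a median of 0.62. Col3a1 was at 12.69 log2 at EG day 5, against 10.33 in the control, Col1a1 at 11.88 against 9.71 and Col1a2 at 12.52 against 10.92, the chains of fibrillar collagens I and III. At EG day 2 these genes differed from control by 0.33, 0.27 and 0.13. Col6a2 was higher by 1.5 and Col15a1 by 1.53, whereas the ubiquitous collagen IV chains Col4a1 and Col4a2 were higher by 0.72 and 0.67, beside the lower Col4a3 and Col4a4. Glycoproteins and crosslinkers had 14 higher and 0 lower of 41. Mfap4, an elastic fibre protein, was at 9.45 against 6.90 (-0.63 at EG day 2), Bgn (biglycan) was higher by 1.74, Serpinh1 (the collagen chaperone HSP47) by 1.59 and Tnc (tenascin C) by 1.46.

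Matrix proteases had 4 of 21 measured members higher by 2-fold or more and 1 lower, with 12 above 0, 8 below it and a median of 0.15. Mmp2, a gelatinase of fibroblasts, was at 10.67 log2 at EG day 5, against 8.22 in the control, and its inhibitor Timp2 at 11.94 against 10.30. Adamts1 was higher by 2.27 and Timp3 lower by 1.01, while Mmp9 was at 5.88 on both arrays. Tgfb1 was higher by 1.25 and Grem1, a BMP antagonist, by 1.49, the 2 members of 30 TGF-beta, BMP and activin genes higher by 2-fold or more, a share near the 4.82% of all measured genes. The median of that list was 0.045, with 16 members above 0 and 14 below it. The fibroblast list had 7 higher and 1 lower of 13 measured, a median of 1.04 and a summed level of 16.66 against 15.54. Pdgfrb, the receptor of pericytes and fibroblasts, was at 11.27 against 9.51 and Pdgfra at 13.19 against 11.72. Nt5e (the ectonucleotidase CD73), the 1 lower member, is also made by proximal tubule and was at 8.49 against 10.53. Smooth muscle genes were mixed: Tagln was higher by 2.28 and Des (desmin) at least 4.11-fold, Acta2 by 0.68, and Myh11, the defining myosin, was lower by 0.38. Their list median of 0.45 became -0.11 without a background level. Alx1, a homeobox factor, was at 9.82 against 7.31.

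**Figure D4:**
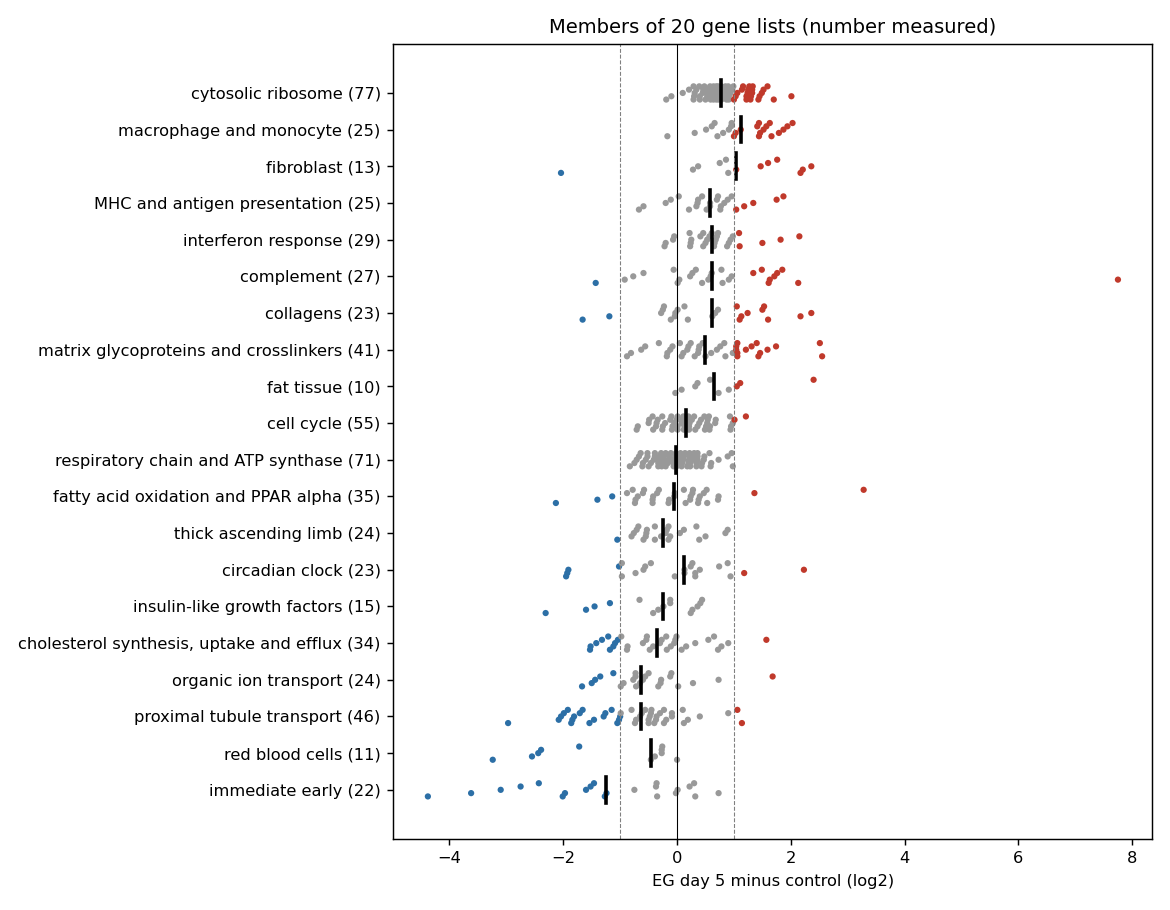
Difference between EG day 5 and control (log2, horizontal axis) for the measured members of 20 gene lists, 1 point a gene, with the number measured in brackets and a black bar at the list median. Red points are higher by 2-fold or more and blue points lower by 2-fold or more. Immediate early, red blood cell and proximal tubule lists reach furthest to the left, while the macrophage and fibroblast medians are 1.12 and 1.04.

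Macrophage genes were higher as a group. Of 25 measured, 15 were higher by 2-fold or more and 0 lower, with a median of 1.12 and a summed level of 17.37 log2 at EG day 5, against 15.52 in the control. Mrc1 (the mannose receptor) was at 8.32 against 6.29, Lyz2 (lysozyme) at 17.18 against 15.24, and Adgre1 (F4/80) at 8.05 against 6.18. At EG day 2 the list median was 1.15, with 15 members higher by 2-fold or more and 0 lower, while Adgre1 differed by -0.26. Stab1, a scavenger receptor of resident macrophages and sinusoid endothelium, was at least 3.56-fold higher. Itgam, Spi1 and Trem2 lay under the background level on both arrays. Phagocyte oxidase genes Ncf1 and Cybb were higher by 1.99 and 1.66.

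Cd3d, Cd3e, Ms4a1, Mpo, S100a8 and S100a9, defining markers of T cells, B cells and neutrophils, were under the level on both arrays, and only 1 of 14 matched neutrophil genes was measured. The T and NK cell list had 10 of 22 matched genes measured, 1 higher by 2-fold or more and 1 lower. Cd4, which rat macrophages also carry, was higher by 2.01 log2, and Cd28, a costimulatory receptor of T cells, was at 6.79 at EG day 5, against 8.48 in the control. Chemokines and cytokines had 6 of 28 higher by 2-fold or more and 0 lower, among them Cxcl13 (a B cell attractant, by 1.74), Il34 (a macrophage growth factor, by 1.45) and Cx3cl1 (fractalkine, by 1.29). Ccl2, the monocyte attractant, was higher by 0.54 at EG day 5 and by 1.37 at EG day 2. Il6 was under the level on both.

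Interferon and antigen presentation genes lay mostly above 0. Of 29 measured interferon response genes 5 were higher by 2-fold or more, 0 lower, and 25 above 0, with a median of 0.61. Irf7, the master factor of type I interferon, was at 7.43 log2 at EG day 5, against 5.61 in the control, and Lgals3bp, a secreted glycoprotein, at 11.22 against 9.07. Mx2 and Rsad2, antiviral effectors, were higher by 0.94 and 1.10 at EG day 5 and lower by 1.48 and 1.07 at EG day 2. MHC and antigen presentation genes had 5 of 25 higher and 0 lower. Tapbp (tapasin, which loads class I) was at 10.88 against 9.01, and the class II genes RT1-Ba and Cd74 at 9.03 and 15.60 against 7.28 and 14.26. RT1 genes resemble each other, so single members are uncertain, and B2m differed by 0.03. Tlr4 and Tlr7 were higher by 1.14 and 1.16, while Nfkbia and Rel of the NF-kB pathway were lower by 1.10 and 1.22.

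Complement genes, which the study's title names, had 9 of 27 measured members higher by 2-fold or more and 1 lower, with a median of 0.61. C7, a terminal component, was at 17.19 log2 at EG day 5, against 15.06 in the control, C1s at 10.39 against 8.54 and C3 at 7.2 against 5.44. Single-gene C4b was at least 3.27-fold higher, while clusters that also name its near copies gave 14.34 against 10.69 for C4a and 12.45 against 8.93 for C4b. Fibrinogen chains Fga and Fgb were at 9.84 and 8.16, against 7.72 and 6.06, and Fgg was at 5.39, just above the level, and under it in the control. At EG day 2 Fga and Fgb were higher by 8.77 and 7.77. F3 (tissue factor) was at 10.93 against 12.58, F2r (the thrombin receptor PAR1) was higher by 1.45, and Plau (urokinase) by 0.58. Among acute phase genes A2m was at least 5.31-fold higher and Cp (ceruloplasmin) was higher by 1.99, whereas Alb, a liver gene, was at 8.19 against 6.46 beside a liver list median of 0.15.

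Ribosomal protein genes were higher almost without exception. Of 77 measured, 75 lay above 0, 22 were higher by 2-fold or more and 0 lower, with a median of 0.77, beside 0.62 for the same genes at EG day 2. Rpl39 was at 15.09 log2 at EG day 5, against 13.08 in the control, Rplp0 at 13.49 against 11.79, Rps4x at 15.56 against 13.97 and Rpsa at 13.90 against 12.38. Under every alternative scaling and background level tried the list median stayed between 0.68 and 0.89. Many of these genes have processed pseudogenes in the rat genome that can share probe signal. Subunits of the respiratory chain and ATP synthase, a list of like size, had 0 of 71 past 2-fold and a median of -0.01. Proteasome subunits had a median of 0.32, with Psmc4 higher by 1.17.

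Sterol synthesis genes lay on the opposite side. The 20 measured genes of cholesterol synthesis and uptake had 8 lower by 2-fold or more and 0 higher, with a median of -0.74, beside -0.09 for the same genes at EG day 2. Idi1 (isopentenyl isomerase) was at 7.88 log2 at EG day 5, against 9.41 in the control, Dhcr7 and Sc5d (the last steps of the pathway) at 8.22 and 11.30 against 9.74 and 12.72, and Stard4, a sterol carrier, at 7.32 against 8.64. Srebf2, the factor that drives the pathway, was at 7.81 and 7.86, and so was not among the lower members. Abca1, the cholesterol exporter of macrophages and other cells, was at 9.48 against 7.91, and Apoe, an acceptor of that cholesterol, at 15.12 against 14.22. The macrophage list stood at a median of 1.12 on the same pair of arrays, and a link between it and these values was not tested.

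**Figure D5:**
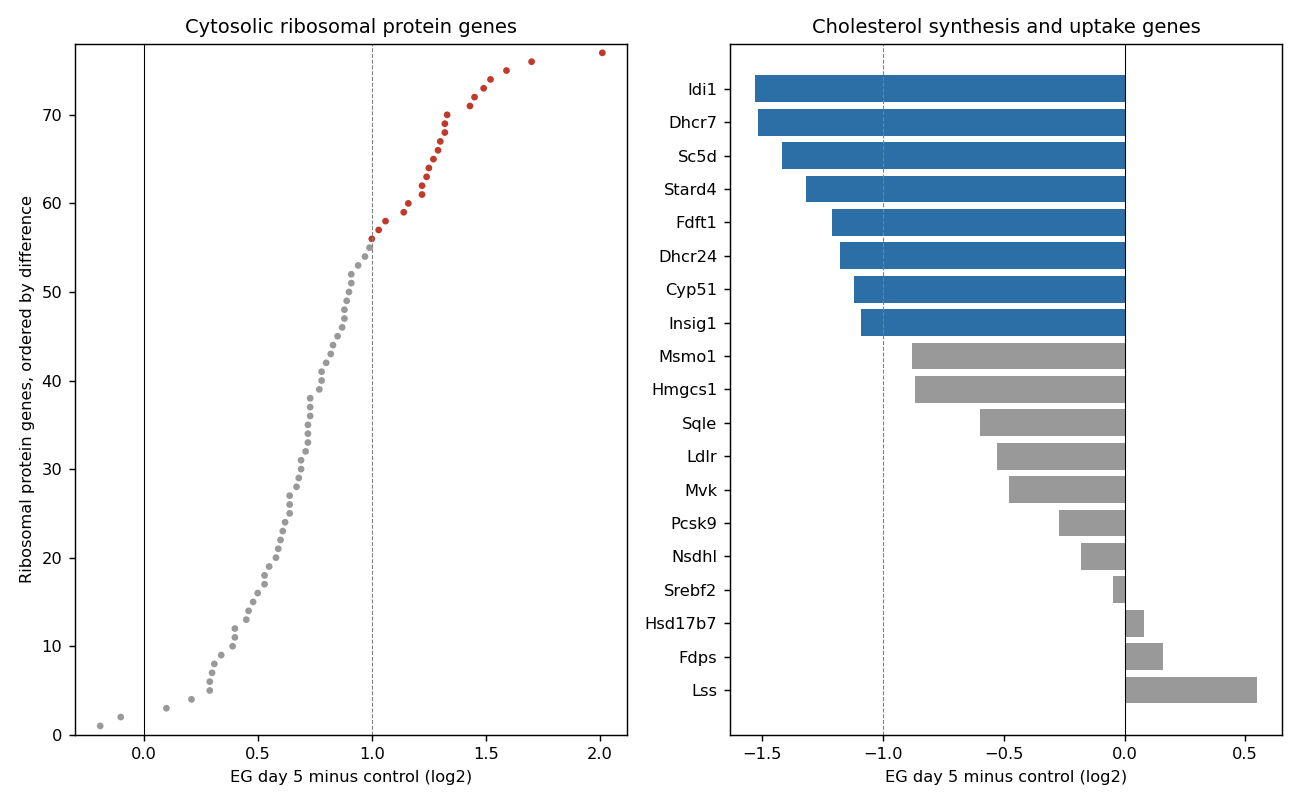
Left panel: 77 cytosolic ribosomal protein genes in order of their difference between EG day 5 and control (log2, horizontal axis), 75 of them above 0 and the 22 in red higher by 2-fold or more. Right panel: the same difference for genes of cholesterol synthesis and uptake as bars from 0, with the 8 in blue lower by 2-fold or more and Srebf2 close to 0.

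Fuel and nuclear receptor genes differed singly rather than as lists. Of 35 measured fatty acid oxidation genes 2 were higher by 2-fold or more and 3 lower, with a median of -0.05. Ppara, the receptor that drives this programme, was at 7.63 log2 at EG day 5, against 9.76 in the control, and Cpt1a, a known target of it, differed by -0.14. Acsm3 was lower by 1.40 and Eci1 higher by 1.36. Nr1h4 (the bile acid receptor FXR) was at 12.07 against 13.72 and Ppard was lower by 1.07. Serine synthesis genes were lower: Psat1 was at 11.77 against 14.57 and Phgdh at 9.31 against 10.68, while Asns and Atf4, which respond to amino acid lack, were higher by 0.94 and 0.63. Ddit4, an mTORC1 inhibitor induced by stress and steroids, was at 9.0 against 11.58.

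Genes known to respond to low oxygen or to nutrients were among the largest lower values. Ndrg1 was at 16.57 log2 at EG day 5, against 19.15 in the control, and Slc16a1 (the lactate carrier MCT1) at 7.10 against 9.66. Both were within 0.10 of control at EG day 2, at -0.01 and -0.10. Bnip3 (a mitophagy receptor) was lower by 1.39, whereas Ldha, Pkm and Hk1 of glycolysis were higher by 0.80, 0.85 and 0.73. Counts for the glycolysis and hypoxia list were 0 higher and 4 lower of 28. Ndrg1 lies close to the top of the scale in the control, where differences may be compressed. Tmem252, a membrane protein gene, was at 9.03 against 13.22, the second lowest difference, and Slc25a25, a calcium-regulated ATP carrier of mitochondria, was lower by 2.62.

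Growth factor genes of the insulin-like family had 4 of 15 measured members lower by 2-fold or more and 0 higher. Igfbp1, which fasting and stress induce and insulin lowers, was at 9.54 log2 at EG day 5, against 11.85 in the control, and differed by 0.41 at EG day 2. Igfals, Igf2r and Ghr (the growth hormone receptor) were lower by 1.60, 1.45 and 1.18, and Igf1 by 0.66. In the EGF family Errfi1, a feedback inhibitor of the EGF receptor, was at 15.16 against 17.52, while Egfr itself differed by -0.26. Wnt genes included Sfrp1, a secreted inhibitor, at 10.01 against 7.76, Wnt5a at 8.53 against 6.94, and Sfrp2, a relative of Sfrp1, at 8.93 against 10.53.

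Redox, iron and lysosome genes were divided. Of 47 measured oxidases and antioxidant enzymes 4 were higher by 2-fold or more and 6 lower. Nox4, the tubule NADPH oxidase, was at 12.58 log2 at EG day 5, against 14.68 in the control, opposite to the phagocyte oxidase genes named above. Hmox1 (heme oxygenase) was at 6.31 against 7.81, Gsta1 (a glutathione transferase of proximal tubule) at 15.57 against 17.25, and catalase, Cat, at 17.37 against 18.75. Gclc, which limits glutathione synthesis, was at 18.42 against 19.51. Among iron and metal genes Mt1a (metallothionein) was lower by 1.26 and Mt1f, whose probes may share signal with it, by 2.91. Lysosomal Ctsb and Lgmn, proteases of proximal tubule endocytosis, were lower by 1.40 and 1.32, whereas Ctsd and Grn were higher by 1.79 and 1.41. Cyp1a1, a target of the aryl hydrocarbon receptor, was at 7.14 at EG day 5 and under the level in the control and at EG day 2.

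Cell division genes were near control at EG day 5. Of 55 measured 2 were higher by 2-fold or more, Ccnd1 (cyclin D1, by 1.21) and Ccnd3 (by 1.01, with another cluster at -0.05), and 0 lower, with a median of 0.16, beside 0.65 for the same genes at EG day 2. Mki67 and Top2a, markers of cycling cells, differed by -0.42 and 0.01. Cdkn1a (p21), the p53 target that halts the cycle, was under the level at EG day 5 and at 6.05 in the control, and Gadd45a was lower by 1.24. The BH3 gene Bid was lower by 1.02.

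Blood and fat markers also differed between the 2 kidneys. Of 11 measured red blood cell genes 5 were lower by 2-fold or more and 0 higher, and the summed level of all 16 matched genes was 14.12 log2 at EG day 5, against 16.77 in the control. Hbb was at 12.87 against 16.11 and Hba1 at 12.64 against 15.03, and Alas2 at 5.59 against 5.98. Globin genes resemble each other and share probe signal. The fat list had 3 of 10 higher and 0 lower and a summed level of 12.29 against 11.59. Car3 was at 9.11 against 6.71 and Adipoq at 9.81 against 8.76, with Plin1 under the level on both arrays. The part of blood or fat content in the values of the other lists was not tested.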

How the data were processed

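Biotin-labelled kidney RNA of 3 male rats was read on Clariom S arrays, with 1 rat on each array, per the labels. The deposited values are log2 signals with 2 decimals, 1 per transcript cluster, made with Transcriptome Analysis Console on rat annotation of build rn6 with no filter, per the file headers. The submitters' processing notes name the same program and build. The sources used here do not give its version, background correction, summarisation or normalization. Both deposited tables held the same values (69564 of 69564).

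Of 23188 clusters, 21502 named 1 gene, 1673 several and 13 none. A gene was its brightest single-gene cluster by the mean of the 3 arrays (776 genes had more than 1). Values under the background level were set to it: 12228 genes had both arrays at or above it, 1100 had 1 and 7339 neither. Where 1 array was under the level the difference is only a bound ("at least"), and where both were no fold is given. A list median counts measured members only. Array medians were 6.30, 6.26 and 6.21 log2 on the EG day 5, EG day 2 and control arrays, with 12804, 12615 and 12752 genes at or above the level. Across genes, which are not replicates, Pearson's r of EG day 5 and control was 0.983. The number of arrays limits the precision. No test was run, and both EG days share the control array, so their values are only set side by side. The counting was tested on simulated data.

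The comparison, the 65 gene lists (1769 symbols, 50 not matched, 38 of these on clusters naming several genes, 8 matched through a synonym) and the rules were chosen with earlier results of these data known. Genes named are the 15 largest differences in each direction, the 8 largest lower bounds, in each list the 5 largest and the first 3 of each role, 10 genes fixed by name, and genes with opposite 2-fold differences at the 2 times. Other list members are named where a sentence needed them, after their values were seen. Of 53 listed or named genes measured by several clusters, 4 disagreed by over 1 log2 unit. Alternatives were 3 other background levels, 3 scalings between arrays (quantile, median and cyclic loess with limma 3.58.1 in R 4.3.3), the mean of a gene's clusters, and lists without shared members. Python 3.11.15, numpy 2.4.6 and pandas 2.3.3 were used. Promoters and symbols came from RefSeq (GRCr8), and motifs were searched on both strands. Some listed genes are not reported here, and 1 is left out of the plot of sterol genes.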

Additional observations from a re-analysis of the deposited data

Results flagged for a closer look

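The following stand apart because EG day 2 and EG day 5 lay on opposite sides of the same control array. With 1 array a time the difference was not tested. Genes at least 2-fold from control in opposite directions were few. EG day 5 minus EG day 2 was 3.84 log2 for Dbp (clock output), 2.63 for Islr (a stromal surface protein) and 2.17 for Rsad2 (interferon response). It was -2.97 for Sgk1 (corticosteroid target), -2.47 for Rfk (riboflavin kinase), -2.27 for LOC100910708 and -2.15 for Akr1b10, an aldo-keto reductase whose relatives can share probe signal.

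Some list medians did the same. EG day 5 minus EG day 2 was 0.76 for the interferon response list and 0.46 for the clock list, and -0.55 for the EGF family and -0.545 for iron handling and metallothionein.

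Clusters that name several genes were left out of all counts above. Of 889 measured at EG day 5 or in the control, 45 were at least 2-fold higher and 29 at least 2-fold lower, with a median of 0.03. These shares are near the 4.82% and 3.68% of all measured genes.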

How the results depend on the processing

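No paired analysis was possible because each group has 1 array, and for the same reason no replicate could be left out. Over 60 list medians and 237 named genes at least 2-fold apart, 478 recomputed medians included 22, from 11 lists, on the other side of 0. Most of the 22 belong to lists within 0.25 log2 of 0, and 3 to lists at least that far from it. Beside those 3, 17 moved by more than 0.25, among them liver parenchyma (0.145, and -0.51 with the level at the median of all values) and stone matrix (1.395, and 0.31 with no level), and 458 by less, while 1604 recomputed gene differences moved by less than 0.5, 53 moved further and 0 changed sign. Centring arrays on their medians left 43.2% of the genes at least 2-fold apart on the higher side, against 56.7% as deposited. The median difference of the brightest minus the dimmest of 5 signal bins, -0.13, was 0.013 after quantile normalization and 0.011 after cyclic loess, both of which equalise the arrays across signal by construction. The smooth muscle and pericyte median of 0.45 was -0.11 both with the level at the median of olfactory receptor genes and with no level. The gluconeogenesis and fructose median of -0.25 was 0.0087 under cyclic loess. The cause of these last reversals was not tested. Signals under 5.34 log2 give no fold.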

Other observations

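Several clusters shared by a gene and its near copies differed by at least 2-fold and belong to genes described above. The shared cluster of Mfap4 was higher by 2.47 log2 at EG day 5 and that of Fbln1 (fibulin 1, a matrix glycoprotein) by 2.22, at 8.38 against 6.16 in the control. The cluster of Tef, a clock output factor like Dbp, was at 8.50 against 7.34. The shared cluster of Hba1 and Hba2 was at 14.88 against 17.49.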
